A study of Mus musculus with 6 samples.

Results

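The genes described here are the 10 MHC class II presentation genes H2-Aa, H2-Ab1, H2-Eb1, Cd74, H2-DMa, H2-DMb1, H2-DMb2, H2-Oa, H2-Ob and Ciita, taken by exact gene symbol from the 27763 gene rows of the deposited table, where each has 1 row. They were read by poly(A) RNA sequencing in splenic natural killer (NK) cells of 6-week-old wild-type C57BL/6 mice. DN NK and cNK cells were compared, with 3 libraries each, and strain, genotype, age and organ are the same in both groups. What DN and c stand for and which surface markers were sorted on are not given in the labels. Whether libraries came from separate mice or from pools is not given either, and p-values here reflect the spread among libraries alone. The series title concerns an immature NK subset of the spleen whose maturation depends on T-bet. Estimated counts per library were 79798234 to 81437724 in DN NK and 84270567 to 89526647 in cNK, and 1 sequenced read pair was worth about 3.78 of them. Levels are given as FPKM, fragments per kilobase of transcript scaled to the depth of the library. All 10 NK cell markers were at 1 FPKM or more in every library, and all 10 were lower in DN NK, with the NKp46 gene Ncr1 at 206 ± 23.2 FPKM in DN NK and 396 ± 45.5 FPKM in cNK (SD, n = 3 each).

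MHC class II molecules are pairs of an alpha and a beta chain that carry peptides from endosomes to the cell surface, where CD4 T cells read them. The invariant chain CD74 guides new pairs to endosomes and fills the peptide groove, DM exchanges the remnant of CD74 for antigen peptides, and DO holds DM back. CIITA is the master coactivator of these genes. B cells, dendritic cells and macrophages are their classical users, and in mice class II has also been described on type 3 innate lymphoid cells (ILC3), while conventional mouse NK cells carry little of it.

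The members were higher in DN NK, in 2 tiers of size. H2-Aa, Cd74, H2-Eb1, H2-DMb2, Ciita and H2-Ab1 were 19.8-fold to 56.9-fold higher, whereas H2-Ob, H2-DMb1, H2-DMa and H2-Oa were 1.62-fold to 3.10-fold higher. Of the 9 members with at least 1 FPKM in at least 3 libraries, 9 passed an adjusted p of 0.05 in edgeR's quasi-likelihood test as higher in DN NK, where 30.8% of all 11690 tested rows did, 30.9% were lower and 61.7% passed in either direction. At least 2-fold higher were 7 of the 9, against 7.90% of tested rows. H2-DMb2 met that filter through DN NK alone, so its place among tested rows already required a difference. Without a filter 10 of 10 were higher, against 15.3% of 27763 rows (31.3% in either direction), and 8 of 10 at least 2-fold, against 6.67%, with a median log2 fold change of 4.53 for the members and 0.08 for all rows. In none of the 10 did the libraries of the groups overlap, and every DN NK library lay above every cNK library in 21.8% of all rows and 31.0% of tested rows. In bulk RNA, more cells of a type and more RNA per cell cannot be told apart.

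**Figure D1:**
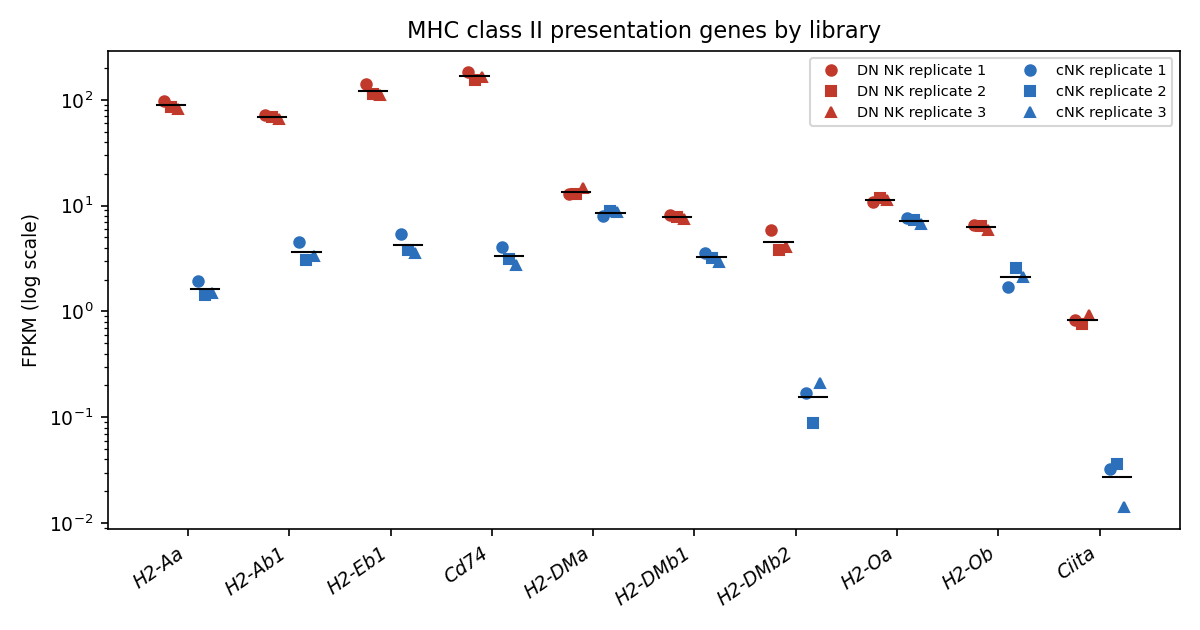
Level of each member in each library, as FPKM on a log axis, with DN NK in red left of cNK in blue, 1 symbol shape per replicate number and a bar at the mean of 3 libraries. The gap between the groups is widest for H2-Aa, Cd74, H2-Eb1, H2-DMb2, Ciita and H2-Ab1 and narrow for H2-DMa and H2-Oa.

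Class II promoters are known for an X box, bound by the RFX complex, followed by a Y box, bound by NF-Y, on which CIITA assembles. RefSeq promoter windows on GRCm38.p6, of 250 bases before to 50 after a gene start, were matched for 7 of the 10 members, and for H2-Ab1, Cd74 and Ciita none was used. The stretches below place members with large and with small differences side by side, on the strand of each gene and all on chromosome 17. They are shown for the Y box core and, where it matched, the X box. Capitals mark the Y box core TGATTGG and, where it has at most 2 mismatches to the X box consensus, the X box before it.
H2-Eb1: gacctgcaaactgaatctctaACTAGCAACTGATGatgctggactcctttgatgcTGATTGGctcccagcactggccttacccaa
H2-Aa: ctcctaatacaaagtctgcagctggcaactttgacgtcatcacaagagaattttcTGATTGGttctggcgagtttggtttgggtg
H2-DMb2: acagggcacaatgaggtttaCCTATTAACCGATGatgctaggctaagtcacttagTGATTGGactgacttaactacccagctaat
H2-DMb1: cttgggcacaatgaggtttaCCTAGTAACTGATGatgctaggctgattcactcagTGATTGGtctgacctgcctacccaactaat
H2-Ob: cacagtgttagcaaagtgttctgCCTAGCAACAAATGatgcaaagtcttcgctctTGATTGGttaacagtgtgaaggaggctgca
H2-Oa: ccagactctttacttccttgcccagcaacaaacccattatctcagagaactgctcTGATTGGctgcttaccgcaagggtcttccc
These stretches lie at chr17:34305751-34305835 (plus strand), chr17:34287844-34287928 (minus strand), chr17:34145102-34145186, chr17:34153073-34153157, chr17:34238791-34238875 and chr17:34092279-34092363 (all plus strand), in the order printed.

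H2-Eb1, H2-DMb2, H2-DMb1 and H2-Ob held the pair of boxes, with 18 to 21 bases between the X box and the Y box. The search for a pair allowed 8 to 28 bases on the strand of the gene, and 11 of 32807 promoter windows, or 0.0335%, held one. Those 11 include the windows of these 4 members. The X box alone, at up to 2 mismatches on either strand, was in 8.47% of windows and the Y box core on either strand in 7.80%. H2-Aa and H2-Oa had the Y box core, and the site most like an X box in that range before it had 6 mismatches in H2-Aa and 3 in H2-Oa. That range is the 8 to 28 bases of the pair search. The 2 windows of H2-DMa, at chr17:34122582-34122881 and chr17:34125268-34125567, held neither. They lie upstream of the start of its row in the deposited table (34135182), which no window covered. Members with a matched pair were thus found in both tiers, with H2-Eb1 and H2-DMb2 in the upper and H2-DMb1 and H2-Ob in the lower, and H2-Aa, the member with the largest difference, had no matched X box. A match is a description of letters, and the letters of the Y box core were chosen with these windows in view. Whether the boxes bear on the size of a difference was not tested.

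The chain genes H2-Aa, H2-Ab1 and H2-Eb1 encode the alpha chain of I-A, the beta chain of I-A and the beta chain of I-E. C57BL/6 mice are known to lack a working I-E alpha chain, and H2-Ea-ps was not analysed here. H2-Aa (ENSMUSG00000036594, chromosome 17 from 34282744 to 34287827, minus strand, GRCm38) stood at 97.9, 86.4 and 82.7 FPKM in DN NK replicates 1, 2 and 3 and at 1.93, 1.43 and 1.503 FPKM in cNK replicates 1, 2 and 3. That was the largest difference of the 10 genes, a log2 fold change of 5.83 (SE 0.16, edgeR adjusted p = 9.18e-07). H2-Ab1 (chromosome 17 from 34263209 to 34269418, plus strand) was at 72.4, 69.1 and 65.8 FPKM in DN NK, against 4.49, 3.07 and 3.33 FPKM in cNK. Its log2 fold change was 4.31 (SE 0.17, edgeR adjusted p = 4.89e-06). H2-Eb1 (chromosome 17 from 34305877 to 34316199, plus strand) was at 141, 113 and 112 FPKM in DN NK, against 5.37, 3.82 and 3.55 FPKM in cNK, with a log2 fold change of 4.90 (SE 0.23, edgeR adjusted p = 2.04e-05). For all 3 genes replicate 1 was the highest library of its group, in DN NK and in cNK.

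The invariant chain gene Cd74 (ENSMUSG00000024610, chromosome 18 from 60803848 to 60812646, plus strand) was the most abundant member in DN NK. It stood at 181, 154 and 163 FPKM in DN NK, against 4.10, 3.15 and 2.77 FPKM in cNK, a log2 fold change of 5.69 (SE 0.19, edgeR adjusted p = 4.91e-06). By mean FPKM 286 rows lay above it in DN NK and 8099 in cNK. The row of the microRNA gene Mir5107, which lies within Cd74 on the same strand, was at 28.3 to 32.9 FPKM in DN NK and 0.212 to 0.783 FPKM in cNK, and reads of the pair cannot be told apart.

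Ciita (ENSMUSG00000022504, chromosome 16 from 10488178 to 10527564, plus strand) encodes the transactivator and was the least abundant member. It was at 0.828, 0.757 and 0.924 FPKM in DN NK, against 0.0325, 0.0360 and 0.0141 FPKM in cNK, below the filter in all 6 libraries. Fitted among all rows, it had a log2 fold change of 4.86 (SE 0.28, edgeR adjusted p = 7.61e-08). The cNK side rests on about 11.9 read pairs over 3 libraries, against about 326 in DN NK, and the groups did not overlap. Dexi, a gene that overlaps Ciita over 25888 bases on the opposite strand, was at 2.24 to 3.18 FPKM in DN NK, against 2.05 to 2.60 FPKM in cNK.

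The DM genes split between the tiers. H2-DMb2, a beta chain gene of DM, was at 5.88, 3.79 and 4.02 FPKM in DN NK, against 0.170, 0.0885 and 0.213 FPKM in cNK, a log2 fold change of 4.89 (SE 0.32, edgeR adjusted p = 9.71e-06). H2-DMb1, the neighbouring beta chain gene, was at 8.13, 7.74 and 7.47 FPKM in DN NK, against 3.54, 3.23 and 2.96 FPKM in cNK, with a log2 fold change of 1.32 (SE 0.11, edgeR adjusted p = 2.01e-05). H2-DMa, the alpha chain gene, was at 13.0, 12.8 and 14.6 FPKM in DN NK, against 7.99, 8.86 and 8.69 FPKM in cNK, with a log2 fold change of 0.72 (SE 0.08, edgeR adjusted p = 8.01e-05). DN NK replicate 1 was the highest library for both beta chain genes, and H2-DMb2 had the widest spread in DN NK, with a coefficient of variation of 25.1% against 4.32% for H2-DMb1. H2-DMb1 and H2-DMb2 lie side by side on chromosome 17 (34153072 to 34160230 and 34143307 to 34151553), their transcripts were 93.9% identical over 1255 aligned bases, and the longest identical stretch, 221 bases, exceeds a read of 150 bases. The row of H2-DMb2 also lists a transcript that GENCODE M21 gives to H2-DMb1, so the split of reads between the pair is uncertain.

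The DO genes, which encode the inhibitor of DM known mainly from B cells, were expressed in both groups. H2-Oa, the alpha chain gene, was at 10.7, 11.7 and 11.2 FPKM in DN NK, against 7.57, 7.26 and 6.77 FPKM in cNK, with a log2 fold change of 0.70 (SE 0.09, edgeR adjusted p = 0.000192). H2-Ob, the beta chain gene, was at 6.62, 6.44 and 5.92 FPKM in DN NK, against 1.70, 2.55 and 2.14 FPKM in cNK, with a log2 fold change of 1.63 (SE 0.14, edgeR adjusted p = 2.15e-05). Both differences were larger than the spread between libraries of a group, and the groups did not overlap for either gene.

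**Figure D2:**
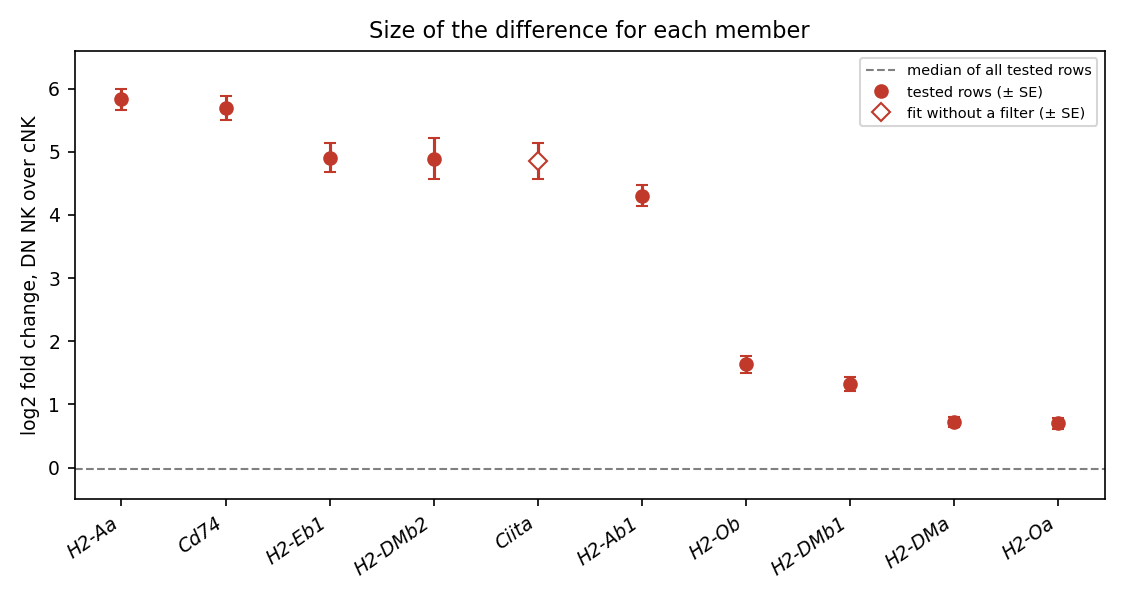
Log2 fold change of DN NK over cNK for each member, with its standard error from edgeR, in order of size; the open diamond is Ciita, from the fit without a filter, and the dashed line is the median of all tested rows (-0.02). 6 members lie between 4.31 and 5.83 and 4 between 0.70 and 1.63.

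The proportions of the members differed between the groups along with the tiers. In DN NK the order by mean FPKM was Cd74 (166), H2-Eb1 (122), H2-Aa (89.0), H2-Ab1 (69.1), H2-DMa (13.5), H2-Oa (11.2), H2-DMb1 (7.78), H2-Ob (6.33), H2-DMb2 (4.57) and Ciita (0.836), and the libraries of no 2 neighbours in it overlapped. In cNK it was H2-DMa (8.52), H2-Oa (7.20), H2-Eb1 (4.25), H2-Ab1 (3.63), Cd74 (3.34), H2-DMb1 (3.24), H2-Ob (2.13), H2-Aa (1.62), H2-DMb2 (0.157) and Ciita (0.0275). There H2-Eb1 overlapped H2-Ab1, H2-Ab1 overlapped Cd74, Cd74 overlapped H2-DMb1, and H2-Ob overlapped H2-Aa. H2-Aa reached 6.65 ± 0.945 of the level of H2-DMa in DN NK and 0.192 ± 0.0436 of it in cNK (SD, n = 3 each). The ratio of H2-Aa to its partner H2-Ab1 was 1.29 ± 0.0573 in DN NK and 0.449 ± 0.0175 in cNK, without overlap of the groups. The ratio of H2-Oa to H2-Ob was 1.78 ± 0.141 in DN NK and 3.49 ± 0.854 in cNK, also without overlap. Between the groups 2 ratios overlapped, those of Cd74 to H2-Aa, at 1.87 ± 0.0987 in DN NK and 2.06 ± 0.189 in cNK, and of H2-DMa to H2-Oa, at 1.20 ± 0.106 in DN NK and 1.19 ± 0.118 in cNK. Ratios were computed from FPKM per library and are given as a description, without a test.

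Of the 10 members 8 lie within 224 kilobases of chromosome 17, and the other genes of that stretch allow a comparison by position. The stretch, from H2-Oa to H2-Eb1, holds 10 more gene rows, of which 7 were tested. Of these 7, 4 were higher, 2 lower and 1 did not pass, with log2 fold changes from -0.58 to 0.84. Over all tested rows 30.8% were higher and 30.9% lower. Psmb9 and Psmb8, which encode immunoproteasome subunits, averaged 9.14 ± 0.818 and 40.7 ± 1.97 FPKM in DN NK, against 14.3 ± 0.619 and 48.7 ± 1.32 FPKM in cNK, and both fell (log2 fold changes -0.58 and -0.20). Tap1, a peptide transporter gene of the class I pathway, was at 16.2 ± 1.15 FPKM in DN NK and 15.8 ± 2.09 FPKM in cNK and did not pass, while Tap2 rose by a log2 fold change of 0.28. Brd2, a chromatin reader gene between H2-Oa and H2-DMa that in GENCODE M21 overlaps H2-DMa on the opposite strand, rose by 0.84, to 97.3 ± 2.50 FPKM in DN NK against 56.9 ± 3.02 FPKM in cNK. The unnamed gene models Gm20496 and Gm15821 rose by 0.78 and 0.67. The class I genes thus lie between H2-DMb1 and H2-Ob, members of the lower tier, with smaller differences than these. Brd2 and Gm20496 differed by more than the members H2-DMa (0.72) and H2-Oa (0.70). The difference itself between members and neighbours was not tested. Beside H2-Eb1, the antisense row Gm20513 was at 0.342 to 0.532 FPKM in DN NK and listed at 0 in all cNK libraries, and the kit does not mark strand. Gm20506, between H2-Ob and H2-Ab1, was likewise at 0.320 to 0.475 FPKM in DN NK, with every cNK library at 0, and both of these rows below the filter were called higher in the fit of all rows (edgeR adjusted p = 0.00136 for Gm20513 and 0.00200 for Gm20506). H2-Eb2, a further beta chain gene just past H2-Eb1, lay below the filter at 0.710 ± 0.269 FPKM in DN NK and 0.254 ± 0.0968 FPKM in cNK. Fitted among all rows, it differed by a log2 fold change of 1.48 (edgeR adjusted p = 0.00782), and without DN NK replicate 1 it was 1.19 with an adjusted p of 0.0563.

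**Figure D3:**
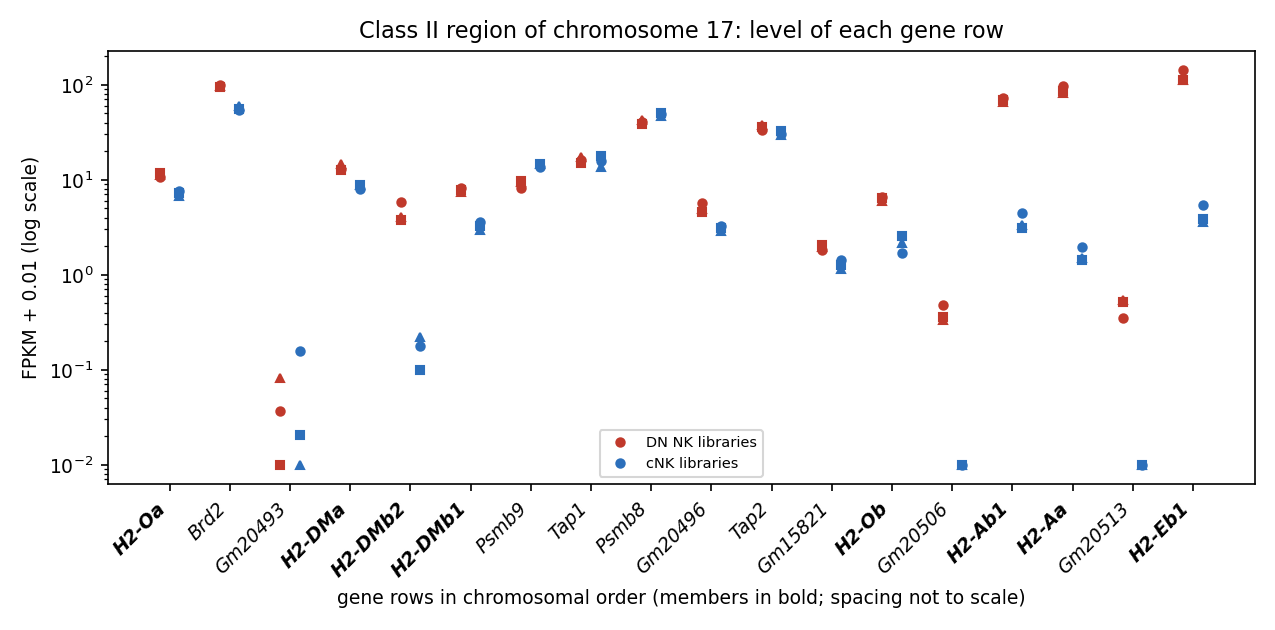
Level of the 18 gene rows from H2-Oa to H2-Eb1 in chromosomal order, as FPKM plus 0.01 on a log axis, with DN NK in red left of cNK in blue, circles, squares and triangles for replicates 1, 2 and 3, and members in bold. The groups stand far apart at H2-DMb2, H2-Ab1, H2-Aa and H2-Eb1 and close together from Psmb9 to Tap2.

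The cofactors that CIITA works with showed no shared direction. All 10 were tested: 3 rose, 2 fell and 5 missed the threshold, where 30.8% of all tested rows rose and 30.9% fell. Their median log2 fold change was 0.00, against -0.02 over all tested rows. Nfyc and Nfyb, subunits of NF-Y, went opposite ways, with Nfyc at 18.6 ± 1.05 FPKM in DN NK and 12.1 ± 0.415 FPKM in cNK and Nfyb at 4.83 ± 0.130 FPKM in DN NK and 8.01 ± 0.787 FPKM in cNK. Crebbp, which encodes the histone acetyltransferase CBP, rose by a log2 fold change of 0.62. Rfx5, the DNA-binding subunit of the RFX complex, was at 3.98 ± 1.13 FPKM in DN NK and 4.75 ± 1.95 FPKM in cNK, with overlap of the groups. These genes were present in both groups at 1 FPKM or more in every library.

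Among 11 genes known to act on Ciita, 9 were above the filter: 4 rose, 3 fell and 2 missed the threshold. Over all tested rows 30.8% rose and 30.9% fell. Irf4, an interferon regulatory factor gene of activated lymphocytes and B cells, had the largest difference (log2 fold change 4.74, SE 0.16, edgeR adjusted p = 8.01e-07). It was at 13.8 ± 1.88 FPKM in DN NK and 0.535 ± 0.0735 FPKM in cNK. Irf4 met the filter through DN NK alone, so its place among tested rows already required a difference. Prdm1, the gene of the repressor Blimp-1 that silences Ciita in plasma cells, fell by 1.45 on the log2 scale, to 4.68 ± 0.200 FPKM in DN NK against 13.4 ± 2.60 FPKM in cNK. Irf8 fell by 0.94, to 60.4 ± 2.82 FPKM in DN NK against 121 ± 14.8 FPKM in cNK. Jak2, a kinase of the interferon gamma receptor, rose by a log2 fold change of 0.82, and Jak1 fell by 0.69. Prdm1 and Irf8 were thus lower, and Irf4 and Jak2 higher, in 3 of 3 DN NK libraries.

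Genes of endosomal processing went both ways. Of the 8 above the filter 4 rose, 3 fell and 1 missed the threshold, with a median log2 fold change of 0.24. Over all tested rows 30.8% rose and 30.9% fell. Ctss, the cathepsin that trims the invariant chain in B cells and dendritic cells, fell by 0.22 on the log2 scale, to 26.0 ± 0.613 FPKM in DN NK against 31.6 ± 1.40 FPKM in cNK. Ctsd, a cathepsin of lysosomes, fell by 0.66. Lgmn, an asparagine endopeptidase gene, rose by a log2 fold change of 1.63, to 1.93 ± 0.465 FPKM in DN NK against 0.648 ± 0.0314 FPKM in cNK. It met the filter through DN NK alone. Ctsl and Ifi30 (the thiol reductase GILT) rose by 0.82 and 0.69. Ctsh lay below the filter, at 0.590 ± 0.120 FPKM in DN NK and 0.0693 ± 0.0140 FPKM in cNK, and rose in the fit of all rows by a log2 fold change of 3.03 (edgeR adjusted p = 2.19e-06).

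Of 3 turnover genes 2 were tested, 1 rose and 1 missed the threshold, where 30.8% of all tested rows rose. In the fit of all rows 2 of 3 rose, against 15.3% of all rows. Cd83, which protects surface class II from ubiquitin-driven loss, rose to 54.1, 46.5 and 45.5 FPKM in DN NK, against 14.4, 6.19 and 8.29 FPKM in cNK (log2 fold change 2.39, SE 0.37, edgeR adjusted p = 0.00443). The gene of the ubiquitin ligase that removes class II, March1, lay below the filter, at 0.163 ± 0.0232 FPKM in DN NK and 0.00705 ± 0.00814 FPKM in cNK, and rose in the fit of all rows by a log2 fold change of 4.42 (edgeR adjusted p = 0.00139). March8, a related ligase gene, was at 0.585, 2.34 and 0.610 FPKM in DN NK, against 1.19, 2.63 and 3.56 FPKM in cNK, with overlap of the groups (log2 fold change -0.99, edgeR adjusted p = 0.322). The log2 fold change of March8 without DN NK replicate 2 was -1.97, with an edgeR adjusted p of 0.0447, and it did not pass without any other library. Of 8 ligand genes listed as costimulatory 4 were tested and 4 rose, against 30.8% of all tested rows. Without a filter 7 of 8 rose, against 15.3% of all rows. The list includes Cd274 and Pdcd1lg2, both tested and higher. These encode PD-L1 and PD-L2, ligands of the inhibitory receptor PD-1. Tnfsf4 (OX40 ligand), Icosl (ICOS ligand) and Cd274 (PD-L1) rose by log2 fold changes of 2.88, 1.60 and 1.37. Tnfsf4 met the filter through DN NK alone. Cd274 was the most abundant of them, at 56.8 ± 4.01 FPKM in DN NK and 22.8 ± 3.04 FPKM in cNK. Cd86, which binds CD28, lay below the filter at 0.851 ± 0.181 FPKM in DN NK and 0.356 ± 0.0183 FPKM in cNK.

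Genes of the receptors that bind class II and of partners of CD74 were also read. All 5 were tested: 3 rose, 1 (Cxcr4) fell and 1 (Cd44) missed the threshold, where 30.8% of all tested rows rose and 30.9% fell. Lag3, an inhibitory receptor for class II, rose to 18.5 ± 1.47 FPKM in DN NK, against 2.05 ± 0.462 FPKM in cNK (log2 fold change 3.23, SE 0.15, edgeR adjusted p = 2.30e-06). Cd4, the T cell coreceptor, was at 3.51 ± 0.290 FPKM in DN NK and 0.0160 ± 0.0202 FPKM in cNK, where it rests on about 5.29 read pairs. Cd4 met the filter through DN NK alone. Mif, a cytokine that binds CD74, rose by a log2 fold change of 0.69.

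**Figure D4:**
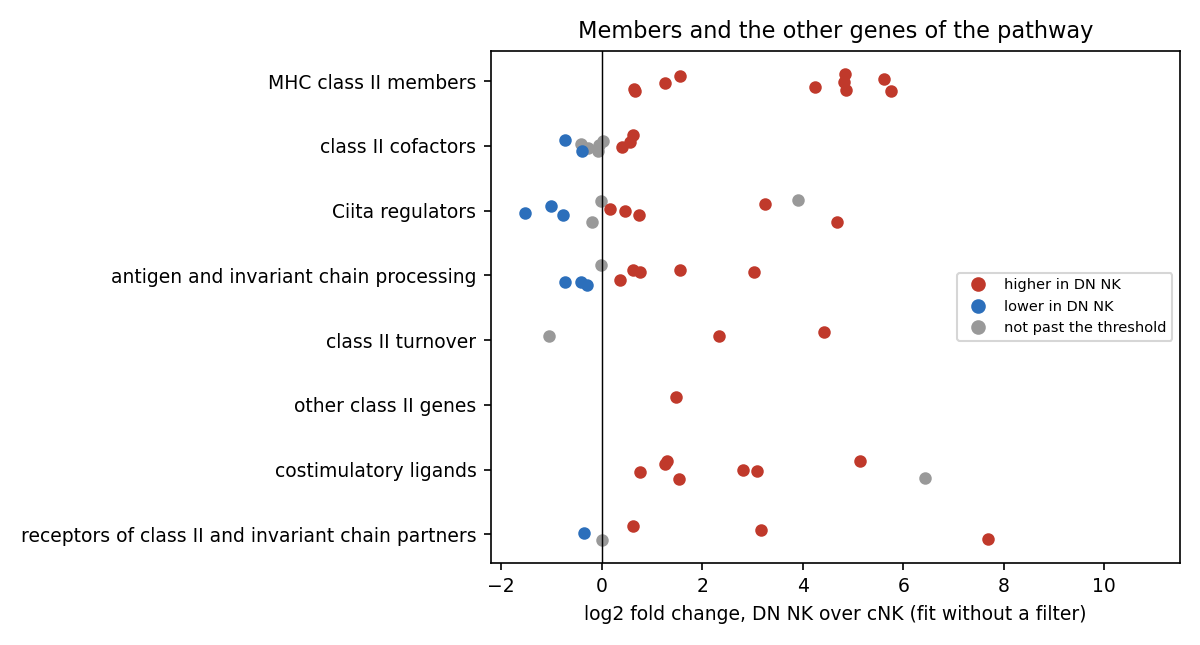
Log2 fold change of DN NK over cNK for the members and for the other genes of each list, from the edgeR fit without a filter, with 1 point per gene, red for higher, blue for lower and grey for not past an adjusted p of 0.05. All 10 members lie right of 0, while cofactors, Ciita regulators and processing genes lie on both sides.

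Markers of other cell types moved in the same libraries. Of 20 B cell markers 19 were higher without a filter and 1, Cd72, was lower, and their summed level was 279.7 to 392.2 FPKM in DN NK and 128.4 to 135.0 FPKM in cNK, with none at 0 in all libraries of a group and Ebf1, Cr2, Blk and Blnk at 0 in a cNK library. Cd79a, a chain of the B cell receptor, was at 13.0, 12.1 and 10.4 FPKM in DN NK, against 0.318, 0.255 and 0.303 FPKM in cNK (log2 fold change 5.39, SE 0.16). Igkc differed by a log2 fold change of 4.47, and Ighm, the most abundant, by 0.68. Ighm, at 144 ± 22.7 FPKM in DN NK and 93.9 ± 1.61 FPKM in cNK, was the largest part of the summed level in both groups. All 6 measured ILC3 markers were higher without a filter, at a summed 7.03 to 9.57 FPKM in DN NK and 0.155 to 0.245 FPKM in cNK, with Il22 and Ccr6 at 0 in all cNK libraries. Of 12 T cell markers 11 were higher, at a summed 743 to 780.3 FPKM in DN NK and 564 to 572 FPKM in cNK. Most of these sums was Trbc1, Trbc2 and Cd28, which were abundant in cNK too, at means of 359, 131 and 65.8 FPKM there. Cd3e was at 0.846 ± 0.122 FPKM in DN NK and 0.0218 ± 0.0214 FPKM in cNK. Of 4 plasma cell markers 3 were higher, at a summed 5.05 to 8.08 FPKM in DN NK and 0.469 to 0.932 FPKM in cNK. The part of these cells in the class II difference was not tested.

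Markers of dendritic cells went both ways, while those of monocytes and macrophages were lower or not past. Of 8 conventional dendritic cell markers 4 were higher without a filter, 1 lower and 3 not past, at a summed 142 to 149.7 FPKM in DN NK and 188 to 199 FPKM in cNK, most of it Itgax, which NK cells also express. The receptor gene Flt3 was at 0.0161 to 0.0390 FPKM in DN NK and 0 to 0.0158 FPKM in cNK, and Clec10a was at 0 in all cNK libraries. Batf3 and Zbtb46, factor genes of these cells, rose by log2 fold changes of 4.62 and 2.09, to 6.72 ± 0.633 and 6.42 ± 0.423 FPKM in DN NK, against 0.277 ± 0.0996 and 1.56 ± 0.435 FPKM in cNK. The chemokine receptor genes Ccr7 and Xcr1 were also higher, with Ccr7 at 7.09 ± 2.02 FPKM in DN NK and 2.98 ± 1.04 FPKM in cNK and Xcr1 at 0.0781 ± 0.0218 FPKM in DN NK and 0.0161 ± 0.00875 FPKM in cNK. Neither call held with each library left out: the edgeR adjusted p for the log2 fold change of Ccr7 was 0.0538 without cNK replicate 3. For the log2 fold change of Xcr1 it was 0.111 without DN NK replicate 2, 0.0549 without cNK replicate 1 and 0.0523 without cNK replicate 3. Of 12 monocyte and macrophage markers 1, Ly6c2, was lower without a filter and 11 did not pass. Their summed level was 17.2 to 18.9 FPKM in DN NK and 36.2 to 41.0 FPKM in cNK, most of it Ly6c2. Ly6c2 alone was at 15.8 ± 1.07 FPKM in DN NK and 37.1 ± 2.17 FPKM in cNK. Of the 11, Lyz2 had the lowest edgeR adjusted p, 0.0510. It was at 0.988 ± 0.199 FPKM in DN NK and 0.337 ± 0.232 FPKM in cNK, without overlap of the groups. Csf1r, the receptor gene that defines monocytes and macrophages, was at 0.105 to 0.214 FPKM in DN NK and 0.111 to 0.223 FPKM in cNK. Of 5 plasmacytoid dendritic cell markers 1 was higher, 1 lower and 3 not past, at a summed 4.99 to 5.84 FPKM in DN NK and 8.05 to 10.2 FPKM in cNK, with Pacsin1, the higher one, at 0.941 ± 0.184 FPKM in DN NK and 0.0257 ± 0.0158 FPKM in cNK and Siglech at 0 to 0.0233 FPKM in DN NK and 0 to 0.0230 FPKM in cNK. The part of these cells in the class II difference was not tested.

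The class II genes and the B cell markers could be set side by side library by library. The ratio of Cd74 to Cd79a was 13.9, 12.7 and 15.7 in DN NK and 12.9, 12.4 and 9.14 in cNK, so the groups overlapped. The ratio of H2-Aa to Cd79a was 7.53 ± 0.392 in DN NK and 5.55 ± 0.568 in cNK, without overlap, and that of Cd74 to Igkc was 1.80 ± 0.362 in DN NK and 0.774 ± 0.123 in cNK, also without overlap. Within DN NK, 16 of 20 B cell markers were highest in replicate 1, at a median of 1.44 times the mean of replicates 2 and 3, where all tested rows had a median of 0.979. For the members this median was 1.07, and 7 of 10 were highest in replicate 1, as were 3343 of the 11690 tested rows. H2-DMb2 stood at 1.51, H2-Eb1 at 1.26, H2-Aa at 1.16, Cd74 at 1.14, H2-Ab1 at 1.07 and Ciita at 0.985. In the lower tier H2-DMb1 and H2-Ob stood at 1.07, H2-DMa at 0.949 and H2-Oa at 0.936. Cd79a and Igkc stood at 1.16 and 1.61, and the medians were 1.16 for ILC3 markers, 0.970 for T cell markers and 0.875 for NK markers. Without DN NK replicate 1 the log2 fold changes of the members kept their direction and their calls.

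**Figure D5:**
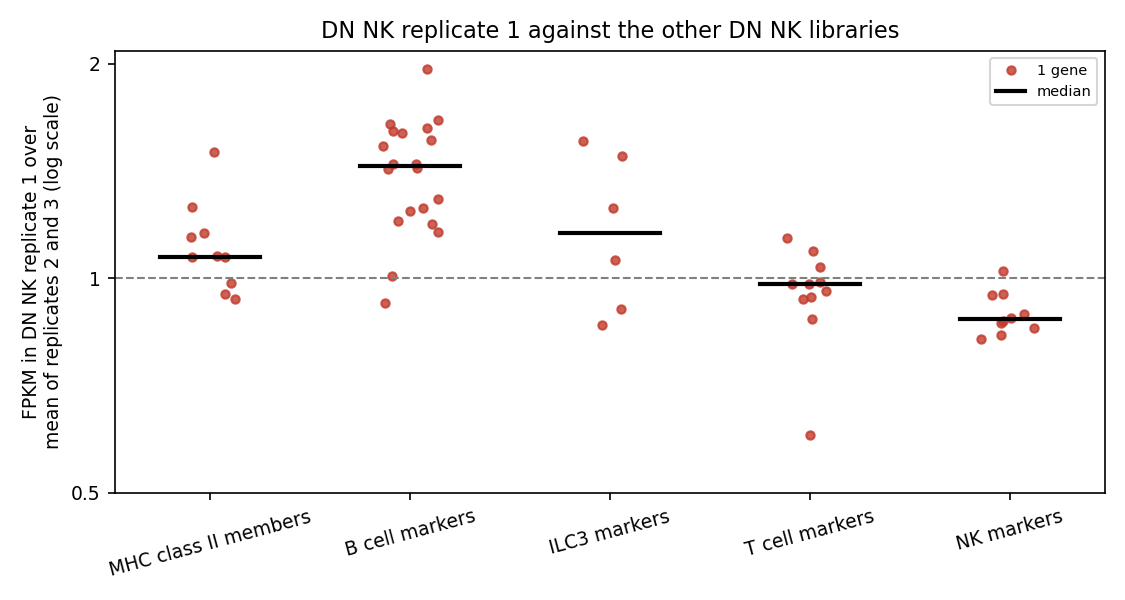
Level of each gene in DN NK replicate 1 divided by the mean of DN NK replicates 2 and 3, on a log axis, for the members and 4 marker lists, with 1 point per gene and a bar at the median; a T cell marker at 0 in replicate 1 is not drawn. B cell markers centre on 1.44 and the members on 1.07.

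The genes whose pattern was most like that of a member were sought among 9720 tested rows, by the distance between log2(CPM + 1) profiles centred on their mean over the 6 libraries. Among the members the closest pair was H2-Aa and Cd74 (distance 0.198), followed by H2-DMa and H2-Oa (0.261). The 5 genes nearest to H2-Aa and to Cd74 were the same, namely Gpr55, a G protein-coupled receptor gene, and Ccdc184, Dscam, Psd2 and Ckb, at distances of 0.326 to 0.993 from H2-Aa. None of these 5 is on a marker list, and the nearest B cell markers to H2-Aa included Pax5, Igkc and Cd79a, in places 19, 22 and 28. These places also depend on abundance, as the pseudocount of 1 shrinks differences of genes with few counts. Cd79a, at 37 to 48 estimated counts per cNK library, had a log2 fold change of 5.39, and Dscam, in place 3, had 5.14. The 5 genes nearest to Ciita were Slc6a13, Cd3g, Prr33, Cdon and Cxcr6, at distances of 0.138 to 0.207, on a scale where the pseudocount shrinks differences of a gene as low as Ciita. Gpr55 was at 15.3 ± 0.711 FPKM in DN NK and 0.154 ± 0.0163 FPKM in cNK. These distances describe 6 libraries of 2 groups, in which any gene with a difference of like size comes out near.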

How the data were processed

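Poly(A) RNA from 5 µg of total RNA was made into libraries with a TruSeq RNA v2 kit, which does not mark strand, and sequenced as paired reads of 150 bp, per the labels' protocols. The submitters' processing notes name the tools HISAT, StringTie and edgeR, without versions or settings, and GRCm38 (mm10) as the build. The deposited table gives FPKM (fragments per kilobase, scaled to depth) and a count per gene row and library, per the file headers. The deposited counts are whole numbers but behave as estimated counts: in rows with 1 listed transcript, between 87.8% and 89.2% of low values (30 or less) are FPKM times length times a constant, rounded up, and low values pile up at about 3.78, taken as 1 read pair. Totals and this unit set the depth, intervals cover counting error only.

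Rows reaching 1 FPKM in 3 or more of the 6 libraries (11690, with 99.26% of the estimated counts) were tested in R 4.3.3 with edgeR 4.0.16, by the robust quasi-likelihood test, 2-sided, with TMM factors, a model of group alone and a threshold of 0.05 on p adjusted by Benjamini-Hochberg across the tested rows. Members and listed genes below the filter were read from a fit of all 27763 rows. Some tested genes met the filter through DN NK alone, among them H2-DMb2, Irf4, Lgmn, Tnfsf4, Cd4, Cd79a and Batf3. For these, a place among tested rows already required a difference. The standard error is the log2 fold change divided by the square root of F. The test was checked on simulated counts. Alternatives were limma 3.58.1 on log2(FPKM + 1) and log2(FPKM + 0.1), DESeq2 1.42.0, other scalings, filters and count units, each library left out, and a replicate block. Members, lists, markers and sequence motifs were chosen with earlier results of these data known. In each pathway list up to 3 genes past the threshold were named by size of change, along with genes of known role in class II presentation and the most abundant or defining markers, some chosen after their values were seen. Of the list entries, H2-Ea-ps, Tnfrsf17, Clec9a, Cd209a, Klk1 and Il17a were not analysed here. Some marker genes are counted in their lists but not reported here by name. No 2 libraries had equal counts in more than 0.710% of tested rows. Transcripts were aligned with Biopython 1.88.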

Additional observations from a re-analysis of the deposited data

How the results depend on the processing

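The 10 members kept their direction and their side of the threshold in all 150 combinations of gene and alternative that could be fitted. Their log2 fold changes ranged from 5.10 to 5.99 for H2-Aa, from 3.93 to 4.50 for H2-Ab1, from 5.27 to 5.88 for Cd74 and from 0.58 to 0.75 for H2-Oa. H2-DMb2 moved most, from 2.25 with limma on log2(FPKM + 1), a scale that understates low genes, to 5.16. Ciita, under the filter, was run without a filter and ranged from 4.57 to 5.06; leaving out each library in turn without a filter, and dividing counts by the worth of 1 read pair there, were added after seeing the data. With a mean of at least 5 FPKM fewer rows were tested, and 4614 rows passed (2278 higher, 2336 lower) against 7215 (3602 higher, 3613 lower). Leaving out 1 library gave 6597 to 7044 rows past the threshold. The log2 fold change of Rfx5, not past in any alternative, was -0.20 and ranged from -0.45 to 0.20 with 1 library left out, reversed to 0.20 without cNK replicate 1, its highest library. The log2 fold change of Cd44, 0.06 and not past, turned to -0.022 with upper quartile scaling and to -0.0011 without a filter. The replicate block gave 7222 rows and changed no call of a member. Replicate numbers share no stated source: same-numbered libraries correlated at 0.109, 0.0855 and 0.148 in their deviations from group means, and every library correlated best with its own number. Depth limits genes whose cNK levels rest on few read pairs, among them Ciita, Cd4, March1 (about 4.23) and Xcr1 (about 6.08).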
